A study of Mus musculus with 3 samples.

Results

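Described here are 10 genes of hydrogen peroxide and thiol chemistry in the mouse small intestine: the dual oxidase Duox2 and its maturation factor Duoxa2, the superoxide dismutase Sod1, the catalase Cat, the glutathione peroxidases Gpx1 and Gpx2, the thioredoxin Txn1, the peroxiredoxins Prdx1 and Prdx6, and the quinone reductase Nqo1. They were chosen by name for these roles, not for a measured value, and were followed across stem-like, cycling-like, early, mature and ileal enterocyte-like, goblet-like and Paneth-like cells and across 3 libraries. All 10 had rows among the 13891 genes of the deposited table. Several are also on marker lists that the study drew from these same libraries (Gpx2 for stem and transit amplifying cells and distal mature enterocytes, Duox2 and Duoxa2 for distal mature enterocytes, Gpx1, Prdx1, Txn1 and Prdx6 for early enterocyte progenitors, Cat and Sod1 for late progenitors and proximal mature enterocytes), so those lists are not independent evidence of where the genes are expressed.

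DUOX2 is an NADPH oxidase of the apical membrane that releases hydrogen peroxide into the gut lumen, where it takes part in defence against microbes, and it needs DUOXA2 to leave the endoplasmic reticulum. Inside the cell, superoxide dismutases turn superoxide into hydrogen peroxide, which catalase, the glutathione peroxidases and the peroxiredoxins then remove, with glutathione, thioredoxin and NADPH as the sources of electrons. NQO1 reduces quinones by a transfer of electrons in pairs and is a well known target of the transcription factor NRF2.

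Intestinal cells of male ICR mice, 3 weeks old at the start, were measured by droplet 3' RNA sequencing. AOS 0 received vehicle, B + A 0 received a single injection of busulfan at 40 mg/kg body weight, an alkylating drug, and vehicle, and B + A 10 received the same busulfan and alginate oligosaccharide (AOS) at 10 mg/kg by gavage, for 2 weeks. Cells of 6 mice were combined into 1 library per group, so that mice cannot be told apart, no difference between groups could be tested, and every interval below is a 95% interval for counting error only. AOS 0, then B + A 0 and then B + A 10 held 4106, 3195 and 5352 cells with medians of 7371, 6407 and 3505 UMIs (unique molecular identifiers, each a counted RNA molecule), and from 17 to 34 cell barcodes were shared by a pair of libraries.

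Clusters were found with these 10 genes and the other genes of a redox list left out of the variable genes, and were named from marker genes. Of 20 clusters, 2 were called stem-like (2432 cells), 1 cycling-like (851), 1 early enterocyte-like (926), 3 mature enterocyte-like (2360), 1 ileal enterocyte-like (929), 4 goblet-like (2418) and 1 Paneth-like (433), and 3 clusters of 1740 cells stayed unnamed, with 13.5% to 14.1% of the cells of each library. Defining markers were high where they should be: the summed level of the mature enterocyte list was 546 UMIs per 10000 in mature enterocyte-like cells against 20.8 to 83.7 in the other enterocyte-like, stem-like and cycling-like classes, and that of the ileal list 484 against 5.30 to 54.9. There were exceptions. The larger stem-like cluster (1525 cells, led by Hist1h2ao and Top2a) scored almost as high for cycling markers (1.93) as for stem markers (1.95), and the summed early enterocyte list was higher in ileal enterocyte-like (684) than in early enterocyte-like cells (332). The summed cycling list was at 18.1 in stem-like and 18.2 in cycling-like cells, so it did not separate these classes. T cell markers in stem-like cells summed to 1.46, 5.25 and 7.14 UMIs per 10000 in AOS 0, then B + A 0 and then B + A 10, an order seen in each of the 7 classes. T cell-like cells (381), in which the goblet markers summed to 603 and the T cell markers to 240, are given below for comparison, and since they carry epithelial RNA their levels are not a floor. One of the goblet-like clusters (381 cells, led by Muc2 and Fcgbp) had 54.9% of its cells among the highest 5% of doublet scores. For some genes, goblet-like values are therefore also given without it.

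Duox2 (chr2:122279246-122298740 of GRCm38) and Duoxa2 (chr2:122298900-122302885) lie head to head, and the sequence between the 2 gene models is shown because 1 short stretch lies before both gene models. (The promoter table puts the Duox2 start site at base 122298227, inside the Duox2 model.) It holds 159 bases, chr2:122298741-122298899, and is given on the Duoxa2 strand from the RefSeq promoter table of GRCm38.p6, with the 1 match to TATAAA on either strand in capitals.
Duox2-Duoxa2: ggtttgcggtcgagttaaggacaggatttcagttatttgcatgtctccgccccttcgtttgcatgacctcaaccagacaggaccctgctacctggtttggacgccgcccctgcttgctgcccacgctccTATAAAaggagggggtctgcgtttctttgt
The match starts 30 bases before the first base of Duoxa2. TATAAA occurs on at least 1 strand in 7.95% of stretches of that length before the 32851 start sites of the table. Duoxa2 overlaps Duoxa1 on the opposite strand at its far end, but Duoxa1 had 8 UMIs in all against 3154 for Duoxa2.

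Dual oxidase was highest in ileal enterocyte-like cells. Duox2 there was at 2.24 UMIs per 10000 in AOS 0 (interval 2.08 to 2.42), 2.62 in B + A 0 (2.39 to 2.87) and 3.28 in B + A 10 (2.99 to 3.59). Every library's ileal level lay above every library's level in early enterocyte-like cells, where Duox2 was at 1.16 in AOS 0, 1.43 in B + A 0 and at 1.48 in B + A 10, and cycling-like cells followed with 1.02 to 1.26, a range that overlapped the early one. The unnamed cluster led by Fam151a and Sis (547 cells) was at 1.78, between the ileal and early classes. The unnamed clusters led by Ms4a18 and by Ccl9 were at 1.04 and 0.825. Goblet-like (0.553 to 0.586) and stem-like cells (0.512 to 0.567) could not be put in order, but the goblet-like cluster of high doublet scores held 324 of the goblet UMIs at a level of 1.21, and without it the goblet-like range was 0.344 to 0.492, below stem-like cells. Mature enterocyte-like cells were at 0.316 to 0.354. Over the 3 libraries the ileal level was 7.92 times (7.03 to 8.95) the mature level, and 7.10 to 10.3 times in single libraries. Duox2 thus separated ileal from mature enterocyte-like cells in every library, while T cell-like cells read 0.271 to 0.840.

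Duoxa2 followed a similar course over the named classes, on a lower scale. Its level in ileal enterocyte-like cells stood at 0.933 (AOS 0), 1.15 (B + A 0) and 1.01 (B + A 10), and in early enterocyte-like cells 0.962, 0.941 and 0.753. These ranges overlapped, and in AOS 0 the early class was above the ileal one. Cycling-like cells (0.492 to 0.661) were below both in each library. Stem-like (0.236 to 0.343) and goblet-like cells (0.253 to 0.287) overlapped, and mature enterocyte-like cells held 0.0958 to 0.142. The unnamed clusters led by Fam151a, Ms4a18 and Ccl9 were at 0.303, 0.398 and 0.380. The cluster led by Fam151a, between the ileal and early classes in Duox2, was thus below cycling-like cells in Duoxa2.

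**Figure D1:**
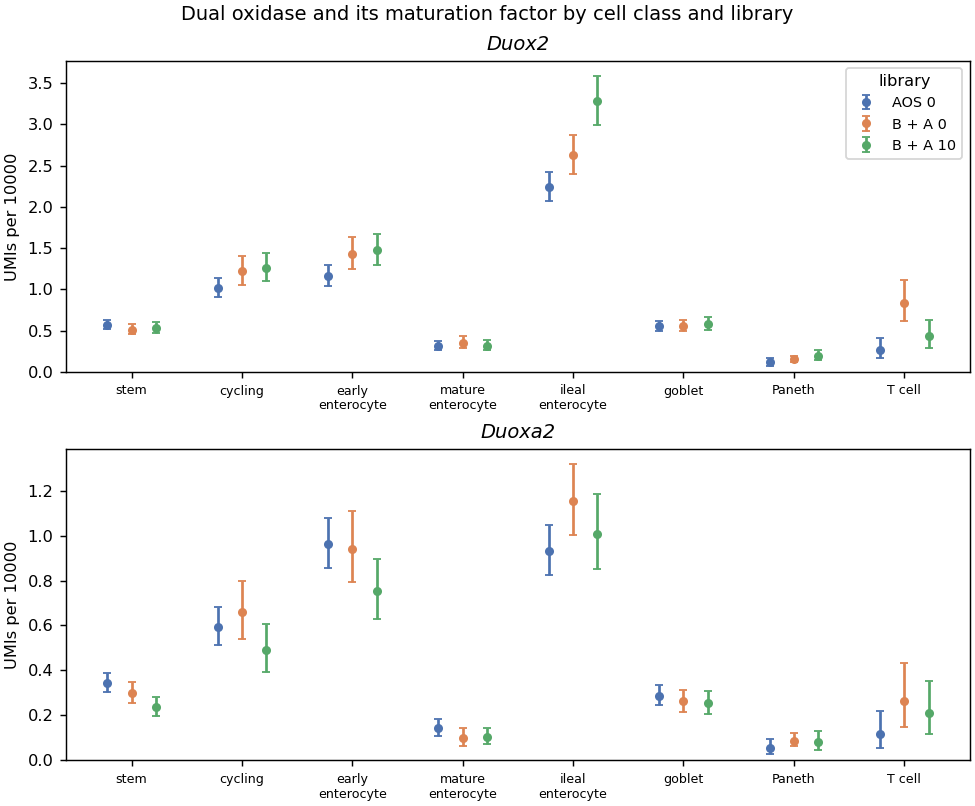
Levels of Duox2 and Duoxa2 in UMIs per 10000 by cell class, 1 point per library with its exact Poisson interval for counting error; class names are names given from marker genes. Duox2 in ileal enterocyte-like cells, at 2.24 to 3.28, is above all other classes, whereas Duoxa2 in ileal (0.933 to 1.15) and early enterocyte-like cells (0.753 to 0.962) overlap.

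Over the 21 points made by 7 classes in 3 libraries, Duoxa2 was the gene most like Duox2 among 9295 genes, and Duox2 the gene most like Duoxa2 (Pearson r of the log2 levels 0.961, and 0.942 over the 18 points without Paneth-like cells). Osbpl7 (0.940) was also among the 3 genes most like Duox2, and Scd2 (0.960) and Bmp3 (0.957) came next for Duoxa2. The points share their libraries and their totals, so these values describe these cells and are not a test.

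In cells thinned at random to 1000 UMIs, Duox2 was seen in 21.2% of ileal enterocyte-like cells (18.6% to 24.0%), 10.9% of cycling-like and 10.6% of early enterocyte-like cells. The T cell-like share was 3.94% (median depths before thinning 4385 UMIs there and 5710 in the ileal class), with an interval of 2.22% to 6.41%. Stem-like (4.81%), goblet-like (4.88%) and mature enterocyte-like cells (3.31%) lay within that interval and Paneth-like cells (1.85%) below it, and whether these shares are expression or RNA from other cells was not tested. Before thinning 67.4% of ileal enterocyte-like, 17.3% of T cell-like and 23.8% of Paneth-like cells (median depth 17432 UMIs) held a Duox2 UMI. Defensins made up 61.7% of the UMIs of Paneth-like cells, so fewer of their 1000 thinned UMIs could come from other genes. Duoxa2 was seen in 9.04% of thinned ileal, 7.88% of early enterocyte-like and 1.84% of T cell-like cells.

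Within the ileal class, at the thinned depth, Duoxa2 was seen in 17 of 197 cells with Duox2, 8.63% (5.11% to 13.5%), and in 9.15% of the cells without it, a share inside that interval. At full depth, where cells differ in depth, the shares were 44.7% and 21.8%. Over all thinned cells, which differ in class, they were 7.35% and 3.08%.

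**Figure D2:**
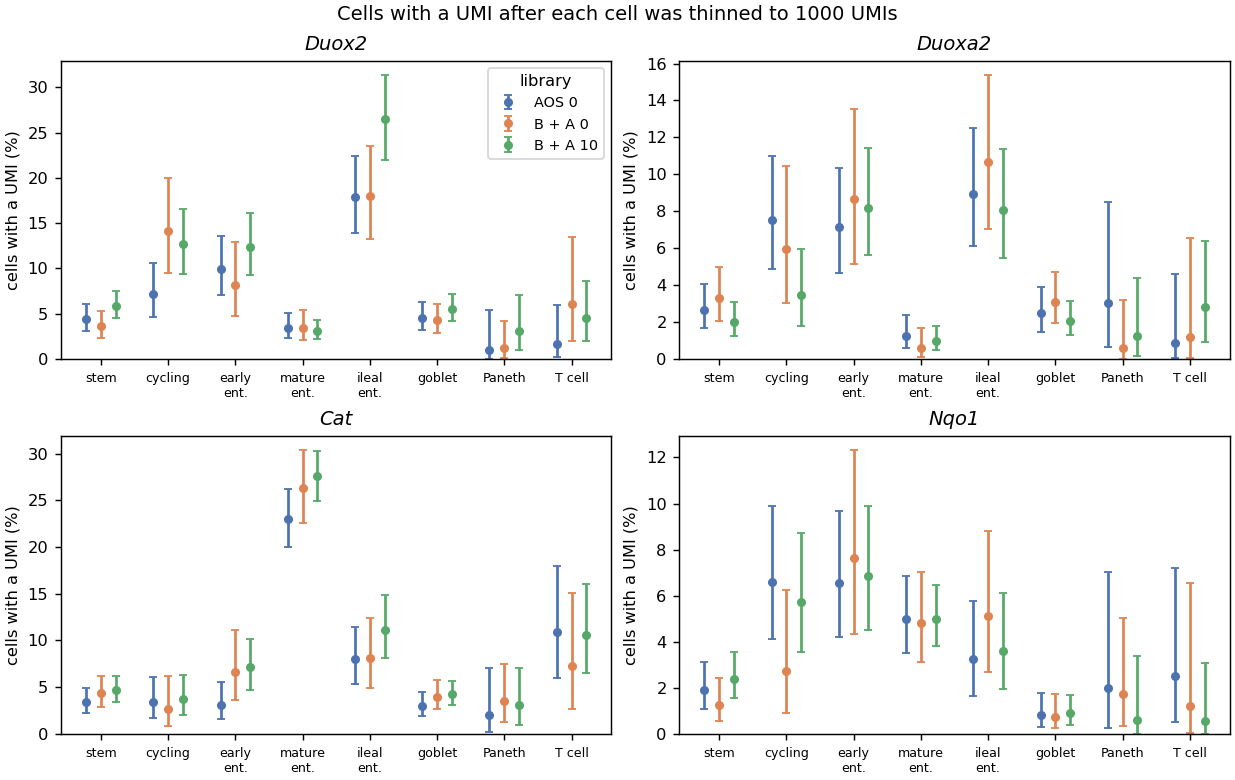
Percentage of cells with at least 1 UMI of Duox2, Duoxa2, Cat and Nqo1 after each cell was thinned to 1000 UMIs, by class and library, with exact binomial intervals for counting error; T cell-like cells are shown for comparison. Duox2 reaches 17.9% to 26.5% in ileal enterocyte-like cells and Cat 23.0% to 27.5% in mature enterocyte-like cells.

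Sod1 (chr16:90220762-90226333), the cytosolic superoxide dismutase that binds copper and zinc, was highest in mature enterocyte-like cells. Its level there was 2.72 (2.56 to 2.89) in AOS 0, 3.52 (3.30 to 3.75) in B + A 0 and 4.26 (4.03 to 4.49) in B + A 10. In each library the mature class was above the ileal class (1.75, 2.21 and 2.91), by 1.46 to 1.60 times, although the ranges over libraries overlapped. Early enterocyte-like (1.75 to 2.83), stem-like (1.56 to 2.39) and cycling-like cells (1.65 to 2.195) could not be put in order. Goblet-like cells were lower, at 0.879 to 1.2497, or 0.637 to 1.01 without the cluster of high doublet scores. Among the 3 mature clusters Sod1 was at 4.40 in the one led by S100g, 3.70 in that led by Fabp1 and 2.77 in that led by Slc5a12. The unnamed clusters led by Fam151a (3.34) and by Ms4a18 (2.95) were above the last of these, and that led by Ccl9 was at 1.54.

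Cat (chr2:103453904-103485153), the peroxisomal enzyme that splits hydrogen peroxide, was highest in mature enterocyte-like cells, as Sod1 was. These held 2.67 UMIs per 10000 in AOS 0 (2.52 to 2.84), 2.71 in B + A 0 (2.52 to 2.91) and 2.98 in B + A 10 (2.79 to 3.17). The libraries were close, and the next class, ileal enterocyte-like cells, held 0.821 to 0.938, about the T cell-like level of 0.875 to 0.963. Levels elsewhere were 0.677 to 0.823 in early enterocyte-like, 0.394 to 0.497 in cycling-like, 0.399 to 0.429 in stem-like and 0.323 to 0.436 in goblet-like cells, or 0.183 to 0.292 without the cluster of high doublet scores. The mature level was 3.21 times (2.93 to 3.53) the ileal and 6.74 times (6.21 to 7.32) the stem-like level. Of thinned mature enterocyte-like cells 25.9% held a Cat UMI (24.1% to 27.7%) against 9.97% of T cell-like cells (7.16% to 13.4%; median depths 3935 and 4385 UMIs) and 3.00% to 9.26% of the other 6 classes. T cell-like cells were above stem-like, cycling-like and goblet-like cells in Cat, so they give no floor for it. All 3 mature clusters were high, with 3.31 in the one led by Slc5a12, 2.49 in that led by S100g and 2.44 in that led by Fabp1. The unnamed clusters led by Fam151a (1.61) and by Ms4a18 (1.11) lay between the mature and ileal classes, and that led by Ccl9 was at 0.293. The genes most like Cat were Crot (r = 0.988), Acsl5 (0.987) and Slc35e2 (0.981). Crot is a carnitine transferase of the peroxisome and Acsl5 activates long-chain fatty acids.

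The glutathione peroxidases split. Gpx1 (chr9:108339080-108340342), the widely expressed cytosolic form, was highest in early enterocyte-like cells, at 10.96 in AOS 0, 11.1 in B + A 0 and at 12.5 in B + A 10, above cycling-like cells in each library (10.4, 9.98 and 9.81). Mature enterocyte-like (5.82 to 7.29) and stem-like cells (5.65 to 6.08) overlapped, and ileal enterocyte-like cells were lower, at 4.20 to 4.94. The mature class was not uniform for Gpx1: the cluster led by S100g held 10.3, that led by Fabp1 8.26 and that led by Slc5a12 2.67.

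Gpx2 (chr12:76792335-76795554), the gastrointestinal form, was the 1 member whose highest class was not an enterocyte class. Stem-like cells held 17.3 in AOS 0 (17.0 to 17.6), 16.5 in B + A 0 (16.2 to 16.8) and 13.7 in B + A 10 (13.4 to 14.0). In each library this was above the ileal class (15.04, 16.0 and 13.4), but the ranges overlapped, as did those of early enterocyte-like (12.3 to 14.4) and cycling-like cells (11.9 to 14.1). A gap followed before mature enterocyte-like (5.90 to 7.24) and goblet-like cells (4.39 to 5.62): the stem-like level was 2.45 times (2.38 to 2.52) and the ileal level 2.28 times (2.21 to 2.35) the mature one. Both stem-like clusters were alike, at 15.9 in the one led by Hist1h2ao and 16.4 in the one led by Olfm4. So where Gpx1 was 2.47 times (2.36 to 2.58) higher in early than in ileal enterocyte-like cells, Gpx2 was at 13.4 and 14.9 there. Genes most like Gpx2 were Blmh (r = 0.957), Sdc1 (0.951) and Foxn3 (0.943), and those most like Gpx1 were Endog (0.981), Mrpl51 (0.979) and Nomo1 (0.971).

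**Figure D3:**
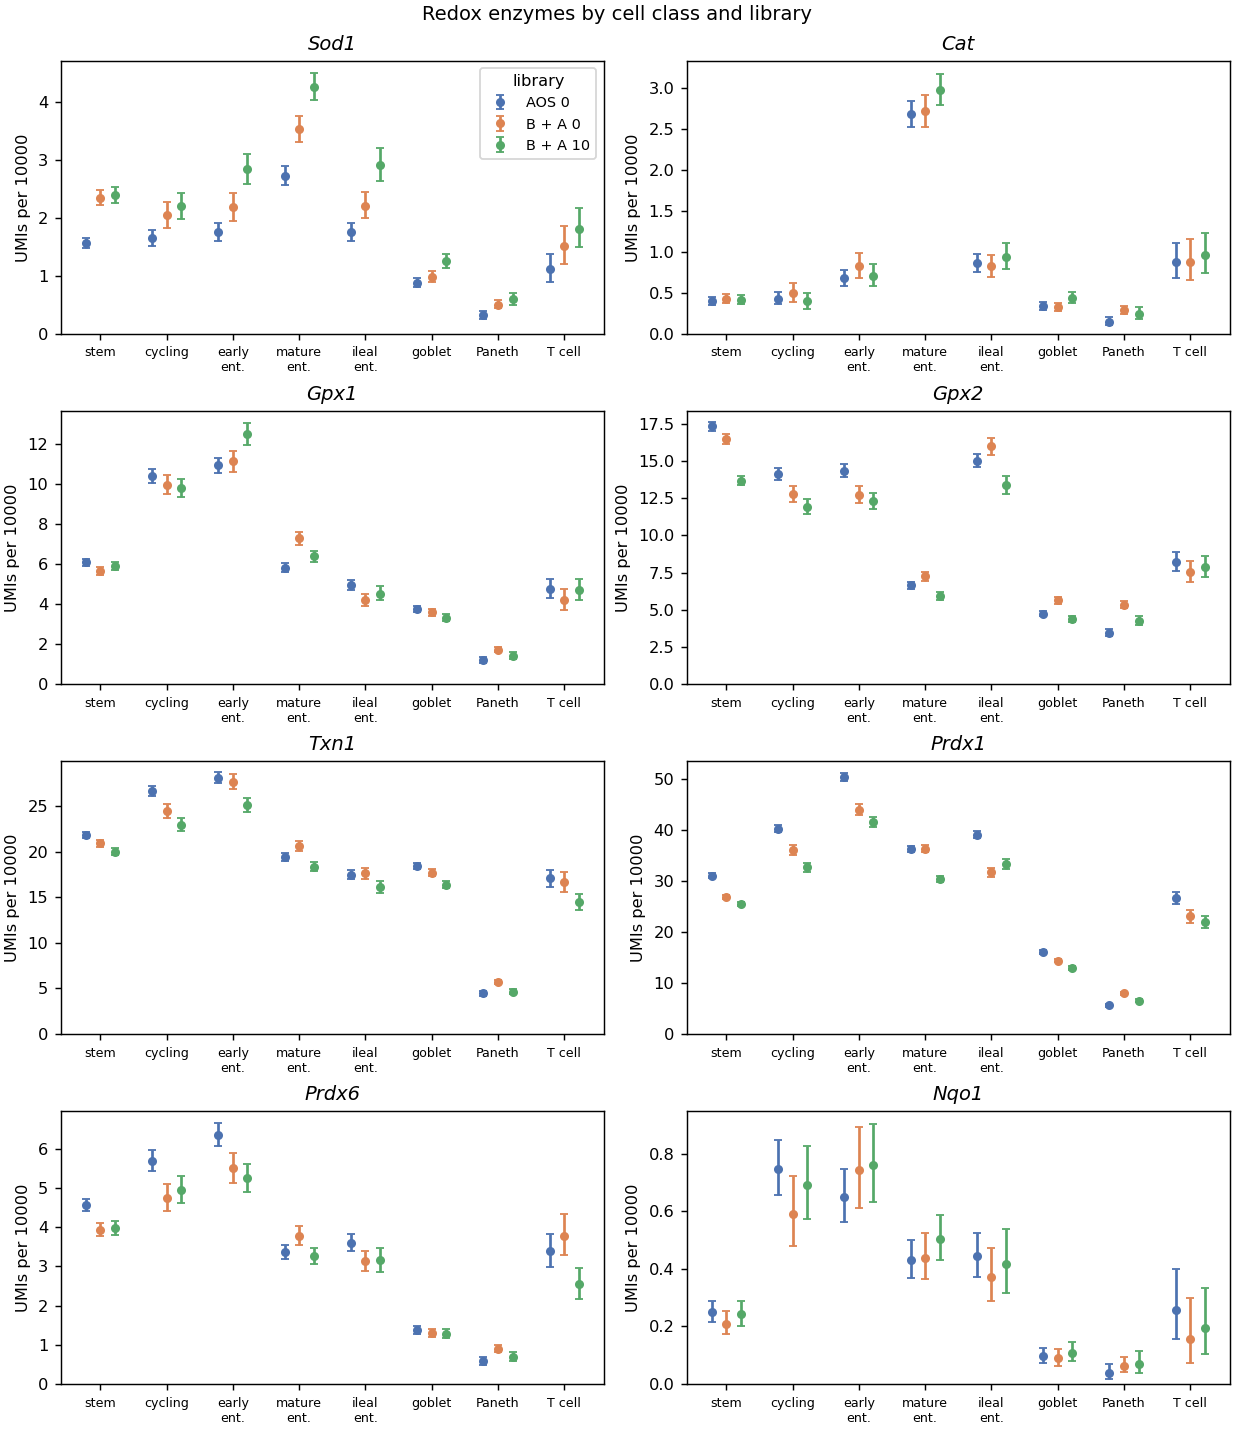
Levels of Sod1, Cat, Gpx1, Gpx2, Txn1, Prdx1, Prdx6 and Nqo1 in UMIs per 10000 by cell class, 1 point per library with its exact Poisson interval for counting error. Cat stands at 2.67 to 2.98 in mature enterocyte-like cells and below 1 in all other classes shown. Gpx2 is lower in mature enterocyte-like cells than in stem-like, cycling-like, early and ileal enterocyte-like cells. Sod1 is in the order AOS 0, then B + A 0, then B + A 10 in each class.

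Thioredoxin and the peroxiredoxins were highest in early enterocyte-like cells, as was Nqo1. Prdx1 (chr4:116685599-116700000), a cytosolic peroxiredoxin, was at 50.5 there in AOS 0, 44.0 in B + A 0 and at 41.6 in B + A 10, above cycling-like cells (40.3, 36.1 and 32.7) in each library. Txn1 (chr4:57943373-57956411), which reduces it, was at 28.1, 27.6 and 25.1 in the same order of libraries. Prdx6 (chr1:161240112-161251210), which uses glutathione and also has a phospholipase activity, was at 6.36, 5.50 and 5.25. All 3 had AOS 0 as the highest library in this class, and each was lower in goblet-like than in early enterocyte-like cells, Prdx1 by 3.16 times (3.11 to 3.22) and Prdx6 by 4.42 times (4.18 to 4.67), or 3.69 and 5.95 times without the goblet-like cluster of high doublet scores. Txn1 varied less: goblet-like cells held 16.4 to 18.4 and ileal enterocyte-like cells 16.1 to 17.6. Prdx6b, a close copy of Prdx6, had 3 UMIs in all against 28658 for Prdx6.

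Nqo1 (chr8:107388225-107403205) was at 0.650 in early enterocyte-like cells of AOS 0, at 0.744 in those of B + A 0 and at 0.759 in those of B + A 10, and at 0.747, 0.591 and 0.692 in cycling-like cells. The 2 classes could not be told apart, and in AOS 0 the cycling-like class was the higher. Mature (0.430 to 0.504) and ileal enterocyte-like cells (0.372 to 0.443) followed, then stem-like cells (0.210 to 0.251), and goblet-like cells were lowest of these at 0.0888 to 0.108, with 0.827% of thinned cells holding a UMI against 1.31% of T cell-like cells. The cluster of high doublet scores held 98 of the goblet-like Nqo1 UMIs, at a level of 0.367, and without it goblet-like cells were at 0.0201 to 0.0476. The mature class was not uniform for Nqo1: the cluster led by Fabp1 held 0.536 and that led by Slc5a12 0.243. That led by S100g held 0.766 (0.629 to 0.923), an interval that held the early level of 0.702 over the 3 libraries.

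In these 4 genes and Gpx1 an unnamed cluster of 770 cells led by Ms4a18 and Il18 was close to the early class or above it, with 49.0 for Prdx1, 26.5 for Txn1, 6.33 for Prdx6, 0.684 for Nqo1 and 13.0 for Gpx1. Levels of Gpx1, Prdx1, Prdx6 and Nqo1 ran together over the 21 points (pairwise r from 0.912 to 0.967), whereas the r of Cat was 0.164 with Duox2, 0.0494 with Duoxa2 and 0.145 with Gpx2. The points include Paneth-like cells, where all members were lowest on this scale, and these r were not taken without that class. The genes most like Prdx1 were Chchd10 (0.992), Atp5c1 (0.990) and Sdhb (0.989), those most like Prdx6 Ndufs7 (0.987), Thap4 (0.986) and Ndufab1 (0.986), those most like Txn1 Ap2s1 (0.987), Lamtor4 (0.986) and Pigt (0.985), those most like Nqo1 Fam101b (0.966), Prpsap1 (0.965) and Nomo1 (0.962), and those most like Sod1 Ppp6r1 (0.977), Atp8b1 (0.975) and Atp5j2 (0.974). Atp5c1, Sdhb, Ndufs7, Ndufab1 and Atp5j2 encode parts of the mitochondrial respiratory chain or ATP synthase. Without Paneth-like cells the r of Txn1 with its 3 genes fell to 0.867 to 0.879.

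Since NQO1 and peroxiredoxins are textbook NRF2 targets, the 250 bases before the start sites of the 9 members in the RefSeq table were searched for the core of the antioxidant response element, TGACNNNGC, on both strands (Prdx6 was not in the table). A match was found before Sod1 and Prdx1, 2 of 9, against 10.2% of the 32851 windows, and none in this window of Nqo1. The sequences are shown on the strand of the gene, with the matches in capitals. Both matches are on the opposite strand, so the capitals read as the reverse complement of the motif. They stand 56 bases (Sod1, window chr16:90220512-90220761) and 133 bases (Prdx1, window chr4:116685349-116685598) before the start.
Sod1: gccaaggtggGCGTGGTCAgactcaggcct
Prdx1: cagggaaagcGCTGAGTCAtcccccgtagg
A match is a description of these letters and says nothing on binding. The 2 genes did not share a highest class, being highest in mature and in early enterocyte-like cells.

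Taken by class, 9 of the 10 members were highest in an enterocyte-like class, 5 of them in early enterocyte-like cells. Of all 10805 genes with at least 100 UMIs, 39.2% were highest in 1 of the 3 enterocyte classes and 7.51% in the early one. The highest class was the same in each of the 3 libraries for 8 members, and in 2 of 3 for Duoxa2 and Nqo1.

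All 10 members were lowest in Paneth-like cells, in each library, but this rests on the scale. Defensins made up 61.5%, 60.2% and 65.1% of the UMIs of Paneth-like cells in AOS 0, then B + A 0 and then B + A 10, and 72.9% of all genes were lowest in Paneth-like cells. With the UMIs of 27 defensin genes left out of the totals, 7 members were lowest there in AOS 0 and 1 in each of the other libraries. Over the 3 libraries together 1 of 10 members was lowest there, against 20.2% of all genes, a share not taken in single libraries. On that scale Gpx2 in Paneth-like cells was at 8.91 in AOS 0, 13.4 in B + A 0 and at 12.2 in B + A 10, above mature enterocyte-like (5.92 to 7.28) and goblet-like cells (4.51 to 5.75) in each library. Txn1, at 11.6 to 14.4, was the 1 member that stayed lowest in Paneth-like cells in each library. With all UMIs but without the goblet-like cluster of high doublet scores, goblet-like cells were below Paneth-like cells in Nqo1 in each library, in Gpx2 in both busulfan libraries, and in Cat in B + A 0.

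**Figure D4:**
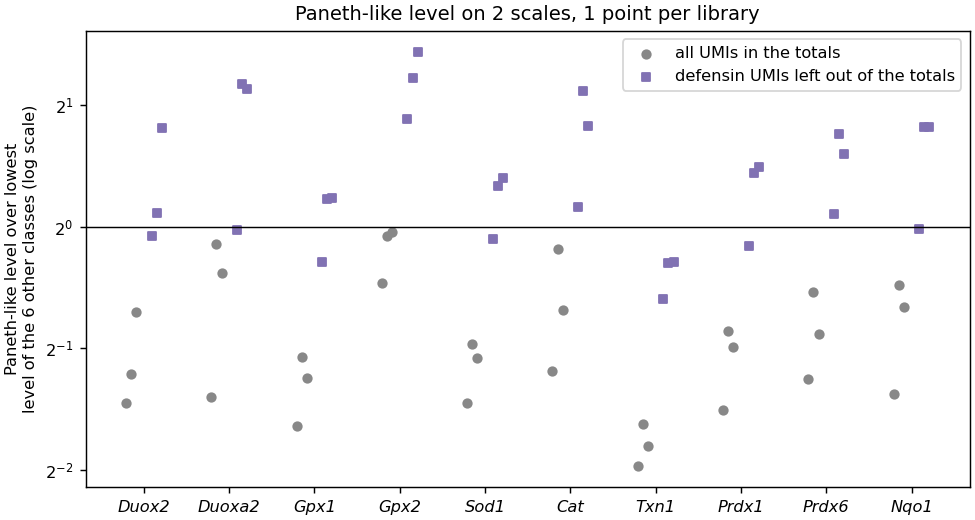
Level of each member in Paneth-like cells divided by its lowest level among the other 6 classes, 1 point per library, left to right AOS 0, then B + A 0 and then B + A 10, on a log scale with the line at 1. With all UMIs in the totals each of the 10 members is below the line in each library; without defensin UMIs 7 members in AOS 0 and Txn1 alone in the other libraries remain below it.

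The study asked what busulfan does to these cells and what AOS does after it. A level at least 25% higher, or lower by the same factor, was taken as past the fold, for genes with at least 100 UMIs in the libraries compared. B + A 0 serves in both comparisons, so their values are set side by side and not related to each other.

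Over all cells, B + A 0 against AOS 0 had no member higher past the fold (3.35% of 10432 genes were) and 2 of 10 lower (21.4% of genes were). Prdx1 went from 32.0 to 25.4 UMIs per 10000, a ratio of 0.794 (0.786 to 0.801), and Nqo1 from 0.358 to 0.272, a ratio of 0.758 (0.691 to 0.832). The median over members was 0.902 and over all genes 0.883, so the share of lower members was close to that of all genes. Defensins were 4.80% of all UMIs in AOS 0, 11.04% in B + A 0 and were 6.67% in B + A 10. With defensin and ribosomal protein genes left out of the totals Prdx1 was at 0.856 and Nqo1 at 0.818, neither past the fold, and with each class given the same weight in both libraries at 0.907 and 0.944. That weight was the share of the class among the cells of all libraries, and only the 7 classes entered. In both settings 1 member was past the fold, Sod1, which was higher at 1.30 and 1.31 in place of 1.20 (1.16 to 1.251).

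B + A 10 against B + A 0 had 3 of 10 members higher over all cells (13.2% of 10130 genes) and 0 lower (3.47%). Sod1 went from 1.91 to 2.45, a ratio of 1.29 (1.24 to 1.34), Cat from 0.739 to 0.932, a ratio of 1.26 (1.18 to 1.34), and Nqo1 from 0.272 to 0.352, a ratio of 1.29 (1.17 to 1.43). The median was 1.08 over members and 1.06 over all genes. None of the 3 was past the fold with defensin and ribosomal protein genes left out (1.23, 1.20 and 1.24). Nor was any with the same class weights in both libraries (1.18, 1.07 and 1.13). Mature enterocyte-like cells, where Cat was highest, were 520 of 3195 cells in B + A 0 and 1118 of 5352 in B + A 10, and within them Cat was at 1.10 (0.996 to 1.21). The part of cell make-up in the ratio over all cells was not tested.

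Within classes, 11 of 65 pairs of member and class were higher in B + A 0 than in AOS 0 (9.42% of all pairs of gene and class were) and 1 was lower, Nqo1 in cycling-like cells at 0.792 (0.617 to 1.01), an interval that held 1 (13.5% of all pairs). Of the 11, 7 were in Paneth-like cells, all of the 7 members with enough UMIs there: Cat 1.92 (1.32 to 2.87), Sod1 1.57 (1.21 to 2.06), Gpx2 1.56 (1.44 to 1.69), Prdx6 1.55 (1.27 to 1.89), Gpx1 1.42 (1.24 to 1.64), Prdx1 1.41 (1.32 to 1.501) and Txn1 1.29 (1.20 to 1.38). In that class 42.6% of all 2489 genes were higher and the median gene was at 1.19, so the direction was common there. The Paneth-like cells of AOS 0, then B + A 0 and then B + A 10 numbered 100, 171 and 162. Without defensins in the totals 6 of the 7 were past the fold, Txn1 being at 1.245 (1.16 to 1.34), just under it. The other 4 pairs were Gpx1 in mature enterocyte-like cells, at 1.253 (1.18 to 1.33), and Sod1 in stem-like, mature and ileal enterocyte-like cells. Without the cluster of high doublet scores, Gpx2 in goblet-like cells was also past the fold, at 1.32 (1.24 to 1.41).

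In B + A 10 against B + A 0, 5 of 66 pairs were higher (9.72% of all pairs) and 6 lower (9.43%). Higher were Sod1 in early enterocyte-like (1.30), ileal enterocyte-like (1.32) and goblet-like cells (1.27), Cat in goblet-like cells at 1.35 (1.07 to 1.70), and Duox2 in Paneth-like cells at 1.28 (0.845 to 1.93). Lower were Gpx2 in Paneth-like (0.798) and goblet-like cells (0.781), Duoxa2 in cycling-like (0.744) and stem-like cells (0.790), Cat in cycling-like cells (0.794) and Prdx6 in Paneth-like cells (0.778). The intervals of Duox2 in Paneth-like, Cat in cycling-like and Duoxa2 in stem-like cells held 1. Without defensins in the totals Gpx2 (0.910) and Prdx6 (0.887) in Paneth-like cells were not past the fold, whereas Sod1 there was, at 1.34 (1.07 to 1.68). Without the cluster of high doublet scores, the interval of Cat in goblet-like cells held 1 (1.30, 0.952 to 1.76).

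**Figure D5:**
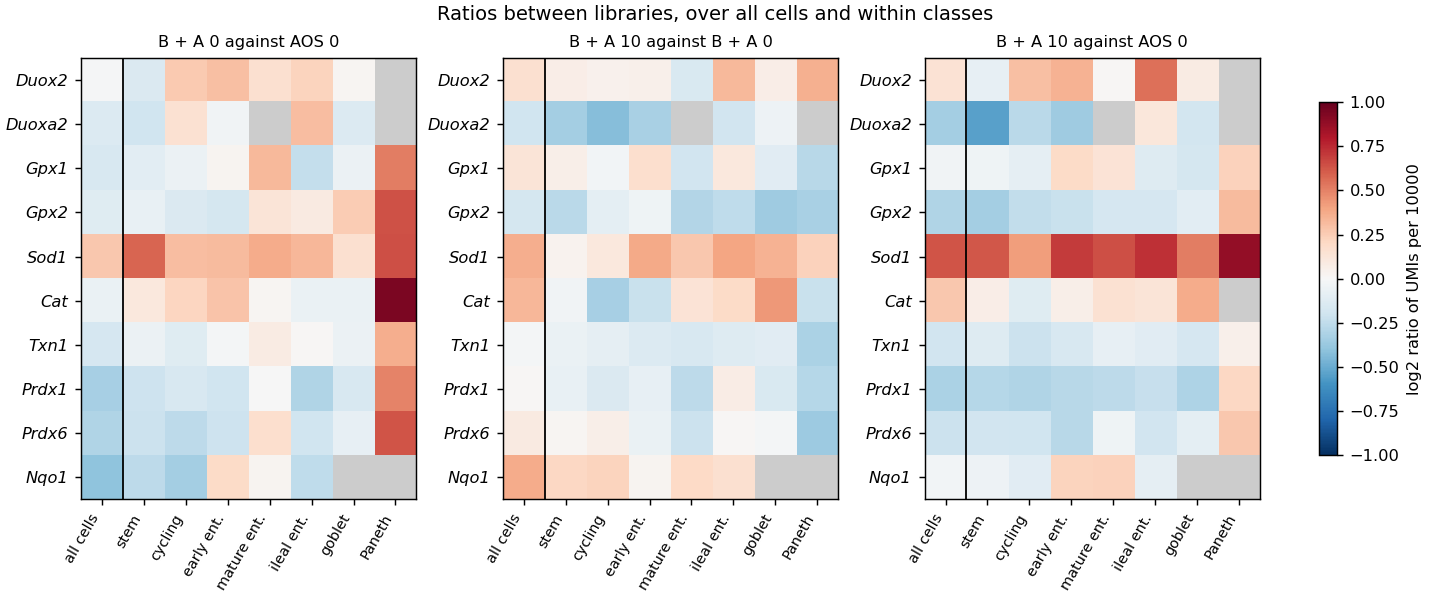
Ratios of UMIs per 10000 between libraries on the log2 scale for each member, over all cells (left column of each panel) and within 7 classes; grey marks pairs with fewer than 100 UMIs. Sod1 is above 0 in each column of the B + A 0 against AOS 0 and B + A 10 against AOS 0 panels, and the Paneth-like column of B + A 0 against AOS 0 is above 0 for all members shown.

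Sod1 was the member that differed between libraries in most classes. Its level was in the rising order AOS 0, then B + A 0 and then B + A 10 in each of the 7 classes, for example 1.56, 2.34 and 2.39 in stem-like, 1.75, 2.18 and 2.83 in early enterocyte-like and 0.879, 0.981 and 1.2497 in goblet-like cells. The interval of 1 of the steps held 1 in 4 classes: the step from B + A 0 to B + A 10 in stem-like (1.02, 0.946 to 1.11), cycling-like (1.08, 0.927 to 1.253) and Paneth-like cells (1.18, 0.934 to 1.47), and that from AOS 0 to B + A 0 in goblet-like cells (1.12, 0.979 to 1.27). Without the goblet-like cluster of high doublet scores the last of these was at 1.22 (1.03 to 1.45), an interval that did not hold 1. B + A 10 against AOS 0, a comparison looked at after the values were seen, had 1 member higher over all cells, Sod1 at 1.55 (1.49 to 1.61), where 9.26% of 10413 genes were higher. Within classes 10 of 64 pairs were higher (12.5% of all pairs), 7 of them Sod1, at 1.33 (1.17 to 1.52) in cycling-like to 1.84 (1.38 to 2.48) in Paneth-like cells. Of the 1439 genes with enough UMIs in all 7 classes, 52 (3.61%) were higher by this fold in each class and 53 (3.68%) had the same order in each class, so Sod1 was not alone. T cell-like cells had the same order for Sod1 (1.11, 1.51 and 1.81), the summed T cell markers in the other classes followed it too, and the median depth fell in it; their part in the result was not tested.

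Prdx1, Prdx6, Txn1 and Gpx2 were lower in B + A 10 than in AOS 0 in each of the 6 classes other than Paneth-like cells, as were 25.9% of 3728 genes. Without the goblet-like cluster of high doublet scores this did not hold in goblet-like cells for Gpx2 (1.03, 0.957 to 1.11) and Prdx6 (1.11, 0.958 to 1.29). For Prdx1 the ratios were 0.808 to 0.852, none past the fold. Lower past the fold in B + A 10 against AOS 0 were 3 of 64 pairs (18.6% of all pairs), Duoxa2 in early enterocyte-like cells at 0.783 (0.630 to 0.968) and stem-like cells at 0.688 (0.548 to 0.859), and Gpx2 in stem-like cells at 0.789 (0.766 to 0.813), and over all cells 1 of 10 members, Duoxa2 at 0.789 (0.721 to 0.863), against 18.9% of genes.

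For the dual oxidase pair the ileal class is given in full. Duox2 in ileal enterocyte-like cells was 1.17 times (1.04 to 1.32) higher in B + A 0 than in AOS 0 and 1.2496 times (1.10 to 1.42) higher in B + A 10 than in B + A 0, just under the fold, and 1.46 times (1.30 to 1.65) higher in B + A 10 than in AOS 0. Duoxa2 in the same cells was at 1.24 (1.03 to 1.48), 0.874 (0.701 to 1.09) and 1.08 (0.877 to 1.33) in the same 3 comparisons, each of the last 2 intervals holding 1. The share of thinned ileal cells with Duox2 was 17.9% (13.9% to 22.4%) in AOS 0, 17.9% (13.3% to 23.5%) in B + A 0 and 26.5% (21.97% to 31.3%) in B + A 10. The summed goblet markers in these cells were 34.7, 109 and 111 UMIs per 10000, and their part was not tested.

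The wider pathway was followed in a list of 62 redox genes, of which 60 were in the table and 54 had at least 100 UMIs (Duox1 and Nox4 were not analysed here). By class, 32 of the 54 (59.3%) were highest in an enterocyte-like class, beside 39.2% of all genes. The 54 include the 10 members, of which 9 were highest there. On the scale that includes defensins 46 were lowest in Paneth-like cells, beside 72.9% of all genes. The list was not counted on the scale without defensins. The non-member with the highest level over all cells in each family, given with its highest class and the level there, was Cyba (a subunit of NADPH oxidases, highest in stem-like cells at 4.17), Sod2 (the mitochondrial superoxide dismutase, early enterocyte-like cells, 2.18), Gpx4 (which reduces lipid hydroperoxides, mature enterocyte-like cells, 13.7), Prdx2 (a cytosolic peroxiredoxin, stem-like cells, 5.05, although Prdx5 of that family reached 7.12 in mature enterocyte-like cells), Txn2 (the mitochondrial thioredoxin, stem-like cells, 2.49), Gsr (glutathione reductase, ileal enterocyte-like cells, 7.30), Taldo1 (transaldolase, ileal enterocyte-like cells, 6.26) and Fth1 (ferritin heavy chain, mature enterocyte-like cells, 85.0). Cat and Gpx4 were thus both highest in mature enterocyte-like cells, where Gpx2 was below its stem-like, cycling-like, early and ileal enterocyte-like levels.

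Over all cells 8 of 53 list genes were lower in B + A 0 than in AOS 0 past the fold and 0 higher, beside the 21.4% and 3.35% of all genes. Besides Prdx1 and Nqo1 these were Nox1 (an NADPH oxidase, 0.621), Noxo1 (its organizer, 0.779), Prdx3 (a mitochondrial peroxiredoxin, 0.788), Gclm (the modifier subunit of glutamate-cysteine ligase, 0.744), Me1 (a source of NADPH, 0.792) and Nfe2l2 (NRF2 itself, 0.760). The list median was 0.861, near the 0.883 of all genes, and with ribosomal protein and defensin genes left out of the totals 2 list genes were higher and 1 lower. In B + A 10 against B + A 0, 3 of 51 were higher, the members Sod1, Cat and Nqo1, and 2 lower, Gpx7 (0.671, 0.459 to 0.971) and Akr1b8 (an aldo-keto reductase, 0.733), beside 13.2% and 3.47% of all genes, with medians of 1.04 for the list and 1.06 for all genes. With ribosomal protein and defensin genes left out, 0 were higher and 3 lower.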

How the data were processed

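Per the methods and the labels, the authors made UMI counts with Cell Ranger 2.2.0 on mm10 with 5000 forced cells per library, removed cells under 200 genes and genes in under 3 cells, and deposited the natural log of 1 + UMIs per 10000 for 12653 cells. From these values whole UMIs were recovered (100% of 24333763 values within 0.01). Groups follow the titles and treatments of the samples, while the source names of B + A 0 and B + A 10 read otherwise. The counts had 35258551, 26044381 and 23003083 UMIs.

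The 3 libraries were integrated (anchors from canonical correlation, 20 dimensions) on 1990 variable genes, after 10 redox genes were taken out, and clustered at resolution 0.8 in Seurat 5.3.0 (R 4.3.3). Each cluster was assigned to the list whose markers had the highest mean z-score, and stayed unnamed where fewer than 3 markers were detected, where none of its 10 leading genes was a marker of that class, or where more were markers of another. Leaving unnamed the clusters without an own leading marker, and leaving hemoglobin genes out of the scoring, were chosen after the clusters were seen. Scrublet's automatic threshold marked 15 cells and had not worked, so doublets were kept. Levels are summed UMIs per 10000 with exact Poisson intervals, shares and ratios have exact binomial ones, and Python 3.11.15, scipy 1.17.1 and scanpy 1.11.5 were used. The ratio step was run on simulated Poisson counts with known folds. These follow the model behind the interval and hold no spread between cells or mice, so they check the calculation only. With 1 library per group no test was run. Replicates of a group did not exist, so intervals leave out the spread between mice.

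Named were all 10 members, in each family of the redox list the non-member with the highest level, every list gene with at least 100 UMIs past the fold of 25% over all cells in B + A 0 against AOS 0 or B + A 10 against B + A 0, and for each member the 3 genes of highest Pearson r of log2(UMIs per 10000 + 0.1) among genes with at least 300 UMIs, except that 1 such gene is not reported here. Members, lists and rules were chosen with earlier results of these data known. Promoter windows came from RefSeq for GRCm38.p6, which held 9 of the 10 members.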

Additional observations from a re-analysis of the deposited data

How the results depend on the processing

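No ratio of a member over all cells that was past the fold turned its direction under any alternative run. Counts over all cells were the least stable. With ribosomal protein and defensin genes left out of the totals, members past the fold in B + A 0 against AOS 0 came to 1 in place of 2 and in B + A 10 against B + A 0 to 0 in place of 3, and list genes to 3 in place of 8 and 3 in place of 5. With means of per-cell values members came to 1 and 1, and list genes to 3 in B + A 0 against AOS 0. With the same class weights in both libraries members came to 1 and 0. At a fold of 1.5, members came to 0 and 0, pairs of member and class to 4 in place of 12 and 0 in place of 11, and list genes to 1 and 0, since the fold is stricter. For B + A 10 against B + A 0, a minimum of 300 UMIs left 7 pairs and 3 list genes, and no minimum gave 13 list genes. Without thinning, Duoxa2 was seen in 44.7% in place of 8.63% of ileal cells with Duox2. Beyond these the cause was not tested. The other 52 of 71 such values stayed within 1.5 times or within their interval, including 8 or 9 members highest in an enterocyte class under each alternative (Nqo1 moved to cycling-like cells without ribosomal protein and defensin genes, and Duoxa2 to early enterocyte-like cells at resolution 1.5 and without joining of the libraries). Of single members, 45 of 100 ratios over all cells moved beyond their interval and 36 of 100 levels in the highest class did, none turning its direction where past the fold. The stem-like class without its S phase cluster, the goblet-like class without its cluster of high doublet scores, and clusters named by score alone were added after the data were seen. Depth limits Duoxa2 and Nqo1 most, and in Paneth-like cells they and Duox2 had fewer than 100 UMIs in AOS 0 and B + A 0 together. No paired analysis was possible because each group has 1 library.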
